A study of Mus musculus with 5 samples.

Results

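Fatty acid synthesis was examined in mouse lung through 10 listed genes, Srebf1, Acly, Me1, Acaca, Fasn, Elovl6, Scd1, Scd2, Dgat2 and Thrsp, taken by name from the platform annotation. All 10 were measured, among 18194 genes in all, by 25 probe sets that carried a single gene symbol. The arrays held lung RNA of female mice of 5 strains: 4B(-/-), which lacks PDE4B, with its wild-type line 4B(+/+), 4D(-/-), which lacks PDE4D, with its wild-type line 4D(+/+), and C57, the C57BL/6J parent. PDE4B and PDE4D are enzymes that degrade the messenger cyclic AMP, and the study asked which genes might bear on the action of a compound against elastase-induced emphysema. None of the mice received elastase. The 4 lines began on a mixed background of C57BL/6 and 129/Ola and were crossed back to C57BL/6J for 11 generations or more. Neither their ages nor the deleted parts of the genes are stated in the labels. Each strain was represented by 1 array, hybridised with RNA pooled from 3 of 5 frozen lungs, so differences between strains have no replicate check, no p-value can be given, and the spread between animals is not known. Values are RMA intensities on a linear scale. The floor for counting a gene was an intensity of 64, or 6 on the log2 scale, on at least 1 array, and 11500 genes met it, all 10 members among them.

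The pathway builds long-chain fatty acids in the cytosol from citrate. Srebf1 encodes the transcription factor SREBP-1, which activates most of the enzymes when insulin is high. Acly turns citrate into acetyl-CoA, Acaca carboxylates it to malonyl-CoA, and Fasn assembles palmitate, with Me1 as a source of the NADPH that this takes. Elovl6 lengthens palmitate to stearate, Scd1 and Scd2 introduce a double bond, and Dgat2 joins fatty acids to diacylglycerol to make triglyceride. Thrsp, also called Spot 14, is a small protein induced by thyroid hormone and carbohydrate that promotes lipogenesis in liver and fat. In lung, alveolar type 2 cells use palmitate for surfactant phospholipid, and brown and white fat, which lie beside the lung in the mediastinum, express much of this set.

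Promoter windows were available for 7 of the 10 members, as 10 windows of 300 bases from RefSeq (build GRCm38.p6) that ran from 250 bases before to 50 bases after an annotated start. The windows of Thrsp and Elovl6, which varied most among the 7, are shown with those of Me1 and Fasn, each 5′ to 3′ on the strand of its gene, with matches to 2 motifs in capitals. The motifs are the CCAAT box (CCAAT), which the factor NF-Y binds, and the GC box (GGGCGG), which Sp1 binds, both searched on either strand. Thrsp lies at chr7:97417501-97417800 on the minus strand, Elovl6 at chr3:129532136-129532435 on the plus strand, Me1 at chr9:86695865-86696164 on the minus strand and Fasn at chr11:120824498-120824797 on the minus strand.
Thrsp: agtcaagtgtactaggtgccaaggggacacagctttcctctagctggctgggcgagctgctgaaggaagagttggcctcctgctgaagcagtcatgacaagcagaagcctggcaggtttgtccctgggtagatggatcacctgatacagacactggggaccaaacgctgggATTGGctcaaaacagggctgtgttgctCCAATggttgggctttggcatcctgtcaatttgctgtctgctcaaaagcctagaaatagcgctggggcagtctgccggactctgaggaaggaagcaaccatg
Elovl6: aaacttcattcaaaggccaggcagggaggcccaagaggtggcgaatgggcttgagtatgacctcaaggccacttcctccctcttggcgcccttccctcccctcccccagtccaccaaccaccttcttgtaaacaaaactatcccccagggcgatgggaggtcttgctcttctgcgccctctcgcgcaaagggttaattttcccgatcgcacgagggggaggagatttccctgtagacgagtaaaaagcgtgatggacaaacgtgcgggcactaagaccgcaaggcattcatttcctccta
Me1: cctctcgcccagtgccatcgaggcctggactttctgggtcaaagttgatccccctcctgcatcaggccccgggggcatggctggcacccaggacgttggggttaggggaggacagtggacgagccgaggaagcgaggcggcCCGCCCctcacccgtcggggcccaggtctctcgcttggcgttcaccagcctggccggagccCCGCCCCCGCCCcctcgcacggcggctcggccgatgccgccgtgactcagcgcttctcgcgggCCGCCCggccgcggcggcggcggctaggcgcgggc
Fasn: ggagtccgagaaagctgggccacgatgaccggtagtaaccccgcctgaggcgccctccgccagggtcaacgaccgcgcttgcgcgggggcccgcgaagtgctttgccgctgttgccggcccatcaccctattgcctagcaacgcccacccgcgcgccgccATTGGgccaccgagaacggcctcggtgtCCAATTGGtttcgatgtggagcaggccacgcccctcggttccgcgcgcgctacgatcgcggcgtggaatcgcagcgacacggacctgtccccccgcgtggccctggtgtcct
Thrsp held the CCAAT box at 79 bases before the start on the reverse strand and at 52 before it on the forward strand. In Fasn the matches began 90 bases before the start (reverse), 62 before it (forward) and 59 before it (reverse), the last 2 overlapping. A CCAAT box was found in 6 of the 10 member windows and in 37.4% of all 32851 windows, and on both strands in 5.8% of all windows, with Fasn and Thrsp the only members. GC boxes were found in 4 member windows and in 35.7% of all windows, and the Me1 window shown held 4 of them. Me1 has a second window, at chr9:86687228-86687527 on the minus strand, with 0 GC boxes and 1 CCAAT box. A sterol regulatory element (TCACNCCAC, either strand) was in 0 of the 10 windows and in 1.24% of all windows. The palindromic E-box CACGTG and the TATA box TATAAA were likewise in 0 member windows, against 7.15% and 13.6% of all windows. These counts describe letters in short windows and say nothing of binding.

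The tissue and the arrays were checked first. Surfactant protein C (Sftpc), the defining type 2 cell product, was near the top of the scale on every array, between 24527 and 24896, and all 11 measured type 2 markers were over the floor. The Pde4b probe set with the highest mean read 457 in 4B(-/-) and 558 in 4B(+/+), and a Pde4d probe set, alone over the floor, gave 386 in 4D(-/-) and 523 in 4D(+/+). Where the deletions lie relative to these probes is not known here, so the values do not settle the genotypes. Medians of the 5 arrays lay between 45.4 and 46.6. Equal values in at least 2 arrays occurred in 59.7% of all probe sets and in 9 of the 25 member probe sets. The 4D(+/+) array stood apart in its skeletal muscle markers, whose summed intensity over 9 genes was 32834, where no other array exceeded 7381. Comparisons of 4D(-/-) with 4D(+/+) are therefore given also against the mean of C57 and 4B(+/+), a reference chosen after seeing the data.

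Most members were low in both knockouts relative to both wild-type lines. In 8 of 10 members, all but Srebf1 and Scd2, both knockout arrays lay below both wild-type lines, a pattern seen in 8.42% of the 11500 genes. The 4D(+/+) array was the highest for 9 of 10 members, all but Scd2, against 14.9% of all genes, and C57 the lowest for 7, against 18.9%. Both held together for 7 members and for 4.37% of genes. These patterns, and the shares by any amount below, needed strict inequality and no minimum size. Equal values in at least 2 arrays, found in 59.7% of all probe sets, can therefore lower the shares of all genes. No probe set standing for a member had equal values. The full order of the arrays differed among members, with 4D(-/-) above 4B(-/-) in Fasn, Scd1, Acaca and Acly and the reverse in Elovl6, Me1, Thrsp and Dgat2. Among the 19 member probe sets over the floor, 15 had both knockouts below both wild-type lines, and the 4 that did not were those of Srebf1 and Scd2. Of the same 19, 16 were highest in 4D(+/+) but 11 were lowest in C57. Acly counted as lowest in C57 through its brightest probe set alone. Its other probe sets over the floor were lowest in 4B(-/-) or 4D(-/-). Each of these shares rests on the same 5 arrays, so the members are not independent of each other. The members were also chosen with earlier results of these data known. Their contrasts with all genes and with other lists, here and below, may in part reflect that choice.

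**Figure D1:**
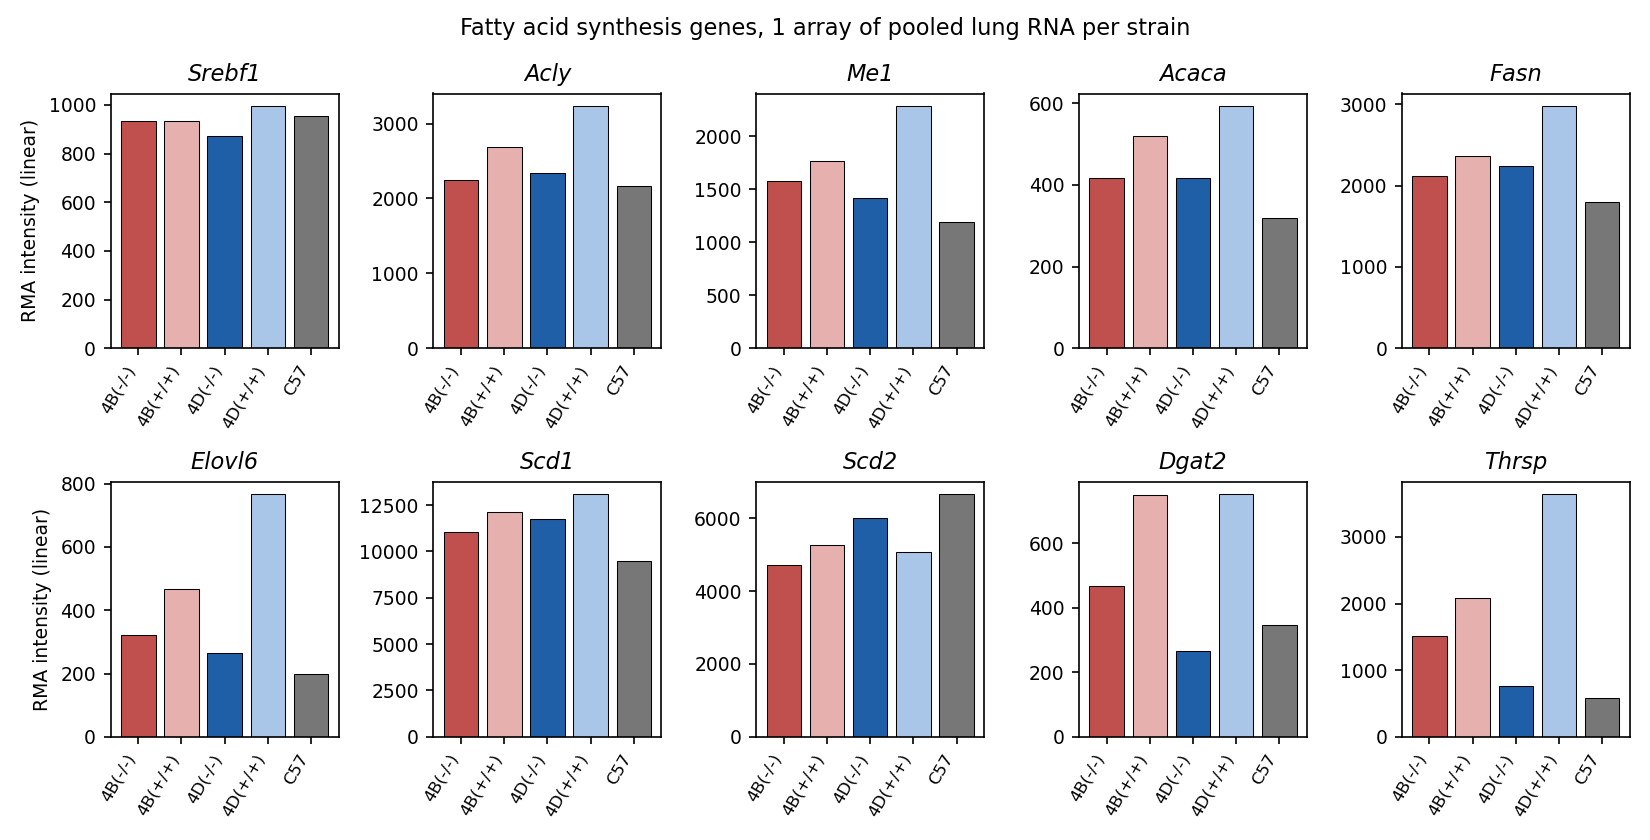
RMA intensity (linear, from 0) of the probe set standing for each of the 10 genes, with 1 bar per array, each array a pool of 3 lungs. The 4D(+/+) bar is the highest in 9 panels, and Thrsp and Elovl6 reach 3643 and 767 there, against 580 and 199 in C57.

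The regulator hardly varied. Srebf1 read 934 in 4B(-/-), 934 in 4B(+/+), 874 in 4D(-/-), 997 in 4D(+/+) and 953 in C57. The 5 arrays lay within 1.14-fold of each other, and 72.3% of all genes had a wider range. The probe set does not separate the forms of SREBP-1 that the gene makes, and it does not measure the cleavage that activates the protein.

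Acly, at the head of the pathway, read 2242 in 4B(-/-) and 2688 in 4B(+/+), 2344 in 4D(-/-) and 3239 in 4D(+/+), and 2162 in C57. Both knockouts stood close to C57 and under both wild-type lines. Of its 6 probe sets 3 were under the floor, and the other 3 gave 1.20-fold to 1.32-fold lower in 4B(-/-) than in 4B(+/+) and 1.29-fold to 1.73-fold lower in 4D(-/-) than in 4D(+/+). The dimmest of the 3, at 267 in 4D(-/-) and 464 in 4D(+/+), gave the 1.73-fold. Against C57 the 3 probe sets disagreed in sign for both knockouts, and 1 of them held exactly 2352 in both 4D(-/-) and C57.

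Me1, the malic enzyme, read 1582 in 4B(-/-) and 1763 in 4B(+/+), 1417 in 4D(-/-) and 2288 in 4D(+/+), and 1195 in C57. Its other probe set read 760 in 4B(-/-) and 963 in 4B(+/+), 581 in 4D(-/-) and 1115 in 4D(+/+), and 455 in C57. Both probe sets placed the arrays in the same order, with the dimmer one spanning 2.45-fold and the brighter one 1.91-fold.

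Acaca read 416 in 4B(-/-) and 519 in 4B(+/+), 417 in 4D(-/-) and 594 in 4D(+/+), and 319 in C57. The knockouts were nearly equal, above C57 and below the wild-type lines. A further Acaca probe set stayed under the floor on every array. Fasn, with a single probe set, read 2115 in 4B(-/-) and 2359 in 4B(+/+), 2236 in 4D(-/-) and 2984 in 4D(+/+), and 1805 in C57. Its whole range was 1.65-fold, and the 3 arrays between the extremes lay close together.

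Elovl6, the elongase of palmitate, had a wider range than any of the enzymes upstream of it. It read 322 in 4B(-/-) and 468 in 4B(+/+), 265 in 4D(-/-) and 767 in 4D(+/+), and 199 in C57. The 4D(+/+) array stood clear of the rest, and C57 and 4D(-/-) were the lowest. A second probe set gave 192 in 4B(-/-) and 285 in 4B(+/+), 150 in 4D(-/-) and 445 in 4D(+/+), and 124 in C57, in the same order. The span of 1.95 on the log2 scale was exceeded by 0.852% of all genes, whose median span was 0.29.

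The desaturases varied less than the elongase. Scd1 read 11071 in 4B(-/-) and 12135 in 4B(+/+), 11747 in 4D(-/-) and 13095 in 4D(+/+), and 9482 in C57. A dimmer Scd1 probe set, at 624 in 4D(-/-) and 843 in 4D(+/+), was 1.35-fold lower in 4D(-/-), where the bright one was 1.11-fold lower. Scd2, the other desaturase, had an order of its own and read 4722 in 4B(-/-) and 5257 in 4B(+/+), 6021 in 4D(-/-) and 5076 in 4D(+/+), and was highest in C57, at 6667. Its 3 probe sets over the floor disagreed on the sign between 4D(-/-) and 4D(+/+), from 1.04-fold lower to 1.19-fold higher, and on that between 4B(+/+) and C57.

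Dgat2, the last enzyme of triglyceride synthesis, read 466 in 4B(-/-) and 750 in 4B(+/+), 265 in 4D(-/-) and 751 in 4D(+/+), and 347 in C57. The wild-type lines were equal to within 1.002-fold, and 4D(-/-) was the only array below C57. A second Dgat2 probe set read 126 in 4B(-/-) and 210 in 4B(+/+), 80.8 in 4D(-/-) and 216 in 4D(+/+), and 120 in C57, with 4D(-/-) lowest again.

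Thrsp varied the most. It read 1509 in 4B(-/-) and 2082 in 4B(+/+), 757 in 4D(-/-) and 3643 in 4D(+/+), and 580 in C57. Its span of 2.65 on the log2 scale, 6.28-fold, was exceeded by 0.452% of genes. The other Thrsp probe set over the floor read 539 in 4B(-/-) and 759 in 4B(+/+), 249 in 4D(-/-) and 1467 in 4D(+/+), and 223 in C57. In both, 4D(-/-) and C57 were low, 4D(+/+) high and the 4B arrays between them.

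The knockout of PDE4D was set against its own wild-type line. Of the 10 members, Thrsp was 4.81-fold lower in 4D(-/-), Elovl6 2.89-fold, Dgat2 2.83-fold and Me1 1.61-fold. The count of members at least 1.5-fold lower was thus 4, where 4.53% of all genes were, and 0 were higher by that much, where 1.1% of all genes were. Thrsp, Elovl6 and Dgat2 were also past 2-fold, in a comparison where 1.51% of genes were lower to that extent. By any amount 9 of 10 members were lower, against 47.2% of genes. Acaca was 1.43-fold, Acly 1.38-fold, Fasn 1.33-fold, Srebf1 1.14-fold and Scd1 1.11-fold lower, and Scd2 was 1.19-fold higher. The median log2 difference was -0.49, against 0.00 over all genes. With the mean of C57 and 4B(+/+) in place of 4D(+/+), 1 member was past 1.5-fold, where 1.18% of genes were, and the median was -0.038, against -0.022 over all genes. That member was Dgat2, at -0.94, whereas Thrsp stood at -0.54, Elovl6 at -0.20 and Fasn at 0.12. With all 3 wild-type arrays averaged as reference, 3 members were past 1.5-fold, where 1.69% of genes were, and the median was -0.17. Thrsp then stood at -1.11, Dgat2 at -1.13 and Elovl6 at -0.65.

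The knockout of PDE4B differed less from its wild-type line. Dgat2 was 1.61-fold lower in 4B(-/-), and was the only member past 1.5-fold, where 0.93% of genes were lower and 0.383% higher by that much. Elovl6 was 1.45-fold, Thrsp 1.38-fold, Acaca 1.25-fold and Acly 1.20-fold lower. Fasn, Me1, Scd1 and Scd2 were each between 1.10-fold and 1.12-fold lower, and Srebf1 was at 1.001-fold. In all, 9 of 10 members were lower by any amount, against 39.8% of genes, and the median log2 difference was -0.21, against 0.01 over all genes. With the mean of C57 and 4D(+/+) as reference, 0 members were past 1.5-fold, where 3.07% of genes were, and the median was -0.098. In that setting Dgat2 stood at -0.13 and Thrsp at 0.05. This reference averages 4D(+/+), the array highest for 9 members, with C57, the array lowest for 7. Against it, all 9 skeletal muscle markers were at least 1.5-fold lower in 4B(-/-), with a median of -1.80. So were 7 of 9 clock output genes. With all 3 wild-type arrays averaged, 0 members were past 1.5-fold, where 1.94% of genes were.

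The 2 knockout comparisons share no array, so their sizes can be set side by side. Thrsp differed by -0.46 on the log2 scale in the PDE4B comparison and by -2.27 in that of PDE4D, Elovl6 by -0.54 and -1.53, and Dgat2 by -0.69 and -1.503. With the mean of C57 and the other wild-type line as reference, Elovl6 stood at -0.28 in 4B(-/-) and -0.20 in 4D(-/-). Thrsp then stood at 0.05 and -0.54, Dgat2 at -0.13 and -0.94, and the members' medians at -0.098 and -0.038. These 2 references both hold C57, but only that for 4B(-/-) holds 4D(+/+), so the values are not directly comparable. Members lower in each knockout than in its own wild-type line by any amount numbered 8, a pattern of 14.9% of all genes. Whether the effects differ between the genotypes cannot be tested with 1 array each.

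**Figure D2:**
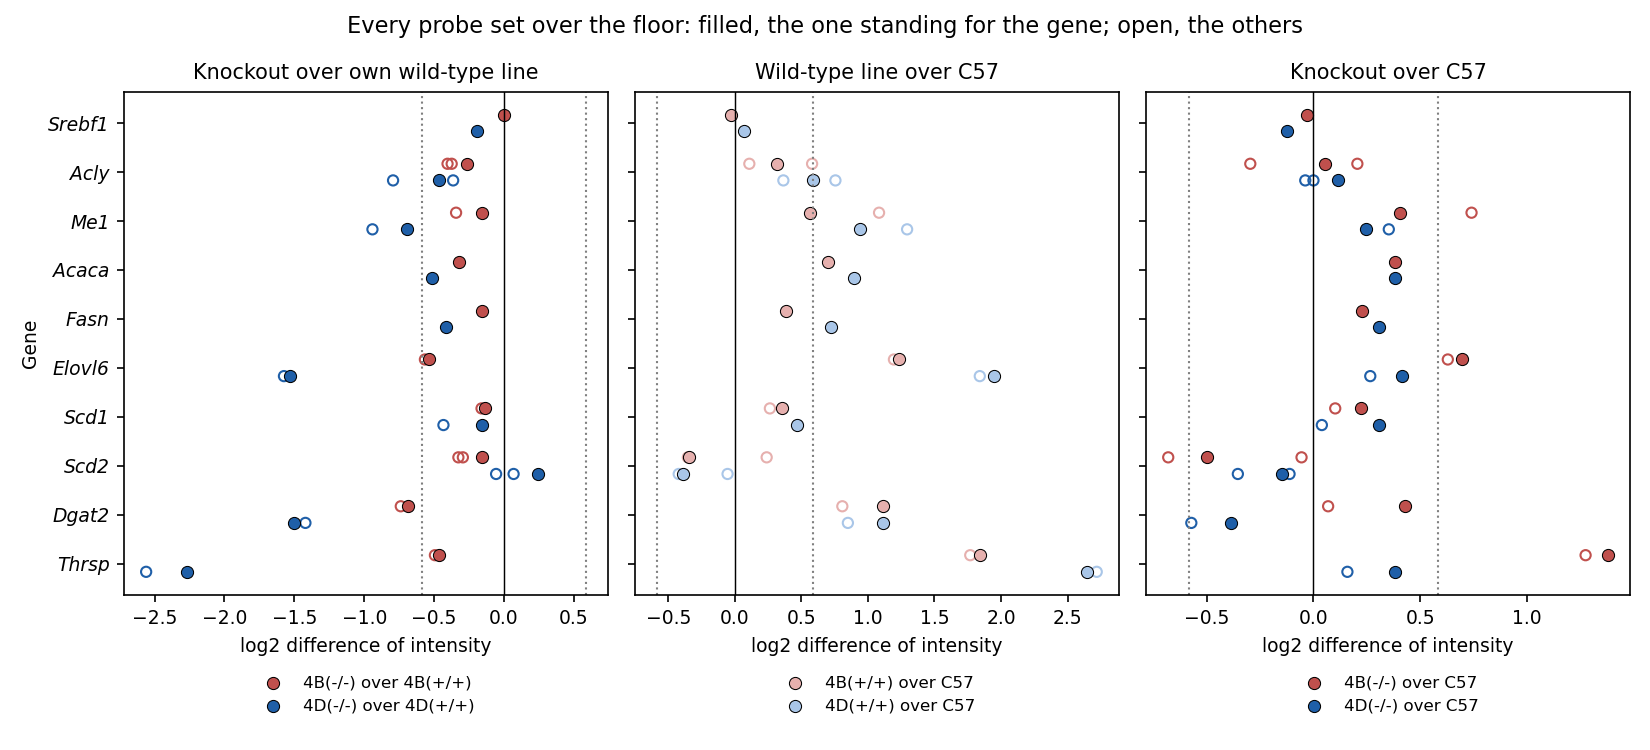
Log2 difference of intensity for every member probe set over the floor (filled, the one standing for the gene; open, the others) in the 6 comparisons, with dotted lines at 1.5-fold. Points of Thrsp, Elovl6 and Dgat2 lie farthest to the left for 4D(-/-) over 4D(+/+), down to -2.56, and to the right for the wild-type lines over C57, up to 2.72.

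The wild-type lines were then compared with C57, a comparison in which neither carries a knockout. In 4D(+/+), 6 of 10 members were at least 1.5-fold higher than in C57, where 4.25% of genes were, and 0 were lower, where 1.24% of genes were. These were Thrsp (6.28-fold), Elovl6 (3.86-fold), Dgat2 (2.17-fold), Me1 (1.91-fold), Acaca (1.86-fold) and Fasn (1.65-fold), with Acly just short at 1.498-fold. In 4B(+/+), 4 members were higher, Thrsp at 3.59-fold, Elovl6 at 2.35-fold, Dgat2 at 2.16-fold and Acaca at 1.63-fold, where 2.23% of genes were higher, and 0 were lower, where 1.33% of genes were. Median log2 differences were 0.81 in 4D(+/+) and 0.47 in 4B(+/+). Both comparisons use the same C57 array, and 9 of 9 clock output genes over the floor were at least 1.5-fold lower in each wild-type line than in C57. All 9 skeletal muscle markers were at least 1.5-fold higher than in C57 in each wild-type line, with medians of 3.12 in 4D(+/+) and 1.03 in 4B(+/+), as were 6 of 8 brown adipocyte markers in each. White adipocyte markers higher by that much numbered 3 of 8 in 4D(+/+) and 4 of 8 in 4B(+/+). Whether time of day, muscle or fat had a part in the members' values was not tested.

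Against C57 the knockouts were closer than the wild-type lines. In 4B(-/-), Thrsp was 2.60-fold and Elovl6 1.62-fold higher than in C57, 2 of 10 members where 2.53% of genes were higher by at least 1.5-fold, and 0 members were lower, where 3.57% of genes were. In 4D(-/-), 0 members were past 1.5-fold in either direction, where 2.17% of genes were, and the values ran from 1.31-fold lower (Dgat2) to 1.33-fold higher (Elovl6). Still, 7 of the 10 were higher in 4D(-/-) than in C57 by some amount, against 39.3% of genes, with a median log2 difference of 0.28. All 9 skeletal muscle markers were at least 1.5-fold higher in 4D(-/-) than in C57, with a median of 0.92.

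Many fat markers, but not all, were lower in 4D(-/-) than in 4D(+/+). Adiponectin (Adipoq), a hormone of fat cells, read 1689 in 4B(-/-) and 1952 in 4B(+/+), 468 in 4D(-/-) and 2065 in 4D(+/+), and 615 in C57. The brown fat uncoupling protein Ucp1 read 251 in 4B(-/-) and 792 in 4B(+/+), 92.2 in 4D(-/-) and 986 in 4D(+/+), and 176 in C57. Both markers were lowest in 4D(-/-) and highest in 4D(+/+). Cidea, a lipid droplet protein of brown fat, was 7.64-fold lower in 4D(-/-) than in 4D(+/+) and 2.15-fold lower in 4B(-/-) than in 4B(+/+). By contrast Lpl, a lipase of the white fat list, held 5156 in both 4D arrays, and the brown fat regulator Prdm16 was 1.10-fold higher in 4D(-/-) than in 4D(+/+). Plin1 was not analysed here.

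Taken as lists, 6 of 8 brown adipocyte markers were at least 1.5-fold lower in 4D(-/-) than in 4D(+/+) and 2 of 8 lower in 4B(-/-) than in 4B(+/+), with 0 higher in each. Of all genes 4.53% were lower by that much in 4D(-/-) and 0.93% in 4B(-/-). Without 4D(+/+) in the reference, 3 of 8 brown and 4 of 8 white markers were lower in 4D(-/-), where 1.18% of all genes were past 1.5-fold in either direction. Of 8 white adipocyte markers over the floor, 4 were lower in 4D(-/-) than in 4D(+/+) and 0 in 4B(-/-) than in 4B(+/+). Brown markers summed to an intensity of 3117 in 4B(-/-) and 4408 in 4B(+/+), 1735 in 4D(-/-) and 7128 in 4D(+/+), and 1764 in C57. Of the 7128 in 4D(+/+), Cox8b gave 2571 and Cox7a1 1574, and whether these came from fat or muscle was not tested. White markers summed to 13715 in 4B(-/-) and 14313 in 4B(+/+), 8794 in 4D(-/-) and 15883 in 4D(+/+), and 9004 in C57. By the median difference from C57, 4D(+/+) stood highest and 4B(+/+) next for both the brown markers and the members. The knockouts had 0.74 in 4B(-/-) and 0.11 in 4D(-/-) for brown markers and 0.31 in 4B(-/-) and 0.28 in 4D(-/-) for the members. The order of the 2 knockouts in the members turned round with centred arrays, to 0.30 in 4B(-/-) and 0.31 in 4D(-/-), and in their summed intensity, 25379 in 4B(-/-) and 26343 in 4D(-/-). White markers had a median of -0.23 in 4D(-/-) relative to C57, where the members had 0.28. The lists are small, several members are themselves strongly expressed in fat, and in whole tissue fewer cells of a type cannot be told apart from less RNA per cell. The part of fat tissue in the members' differences was not tested.

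**Figure D3:**
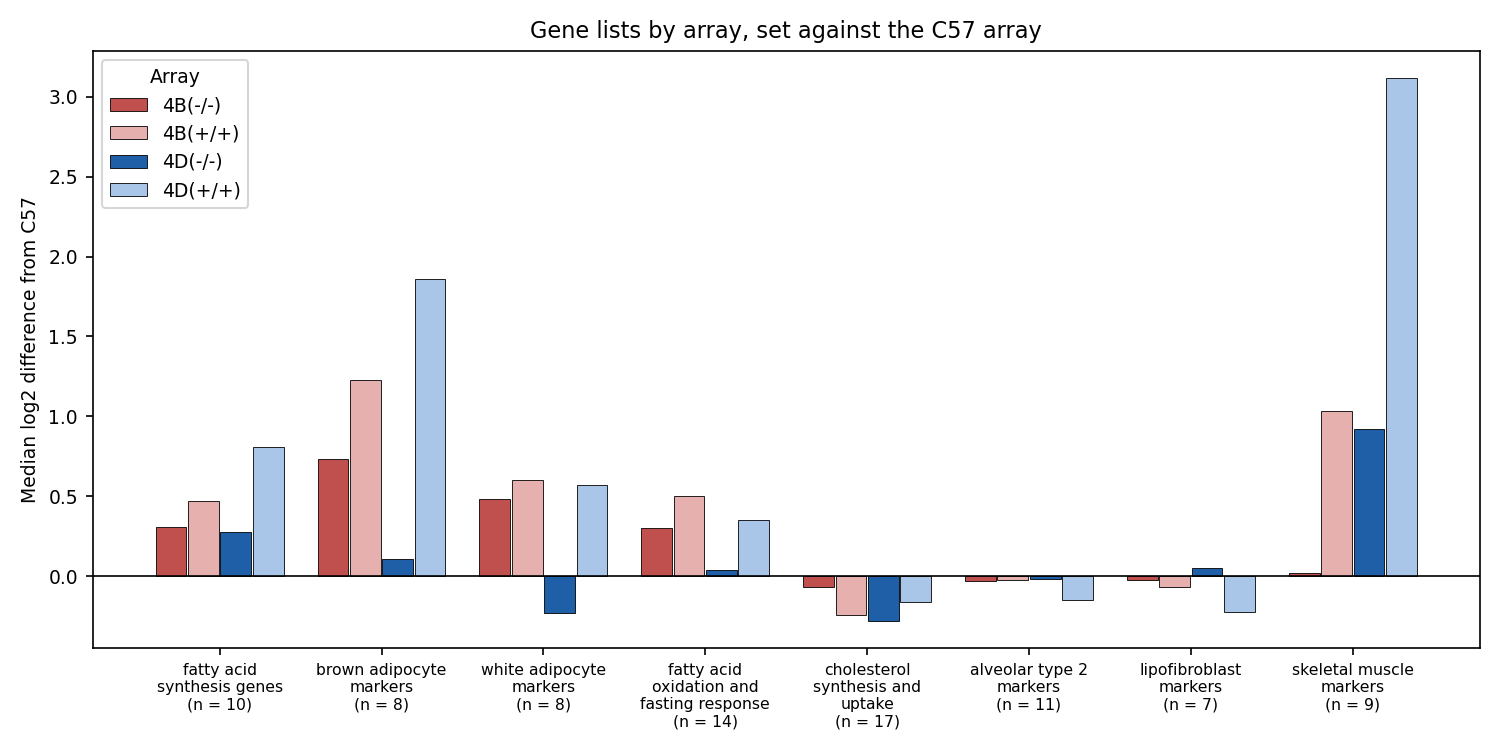
Median log2 difference from the C57 array for 8 gene lists (number of genes over the floor in brackets), with 1 bar for each of the other 4 arrays. Bars of the fatty acid synthesis genes reach 0.81 in 4D(+/+), those of brown adipocyte markers 1.86, and those of type 2 and lipofibroblast markers stay between -0.22 and 0.05.

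Markers of lung cells that handle lipid had smaller median differences than the members. Of 11 alveolar type 2 markers 0 were past 1.5-fold in either knockout comparison. Of all genes 1.31% were so in 4B(-/-) and 5.63% in 4D(-/-), so a count of 0 in a short list is near the share of all genes. The medians of the type 2 markers were -0.01 in 4B(-/-) and 0.13 in 4D(-/-), each against its own wild-type line. Among these the lipid transporter of surfactant, Abca3, read 2430 in 4B(-/-) and 2461 in 4B(+/+), 2919 in 4D(-/-) and 2221 in 4D(+/+), and 2464 in C57, with 4D(-/-) the highest where 8 of 10 members had both knockouts low. Lipofibroblasts are lipid-laden fibroblasts next to type 2 cells, and 0 of 7 of their markers were past 1.5-fold, against the same shares of all genes. Their medians were 0.04 (4B(-/-)) and 0.28 (4D(-/-)). All 9 skeletal muscle markers were at least 1.5-fold lower in 4D(-/-) than in 4D(+/+), where 4.53% of all genes were. The same held in 4B(-/-) over 4B(+/+), where 0.93% of all genes were. Without 4D(+/+) in the reference 0 of the 9 were lower and 1 was higher in 4D(-/-), where 1.18% of all genes were past 1.5-fold. The part of muscle in the members' values was not tested.

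Other genes of the pathway showed less than the 10 members, which were chosen with earlier results of these data known, so the contrast may in part reflect that choice. Of 22 partners over the floor, among them desaturases, further elongases and sources of NADPH, 3 were at least 1.5-fold lower and 1 higher in 4D(-/-) than in 4D(+/+). Of all genes 4.53% were lower and 1.1% higher by that much. Acacb, the mitochondrial form of acetyl-CoA carboxylase, was 1.82-fold lower, the acetyl-CoA synthetase Acss2 1.71-fold and the dehydratase of elongation Hacd2 1.68-fold, and the elongase Elovl7 was 1.51-fold higher. In 4B(-/-) 0 partners were past 1.5-fold, where 1.31% of all genes were, and the medians were 0.01 in 4B(-/-) and 0.00 in 4D(-/-). Without 4D(+/+) in the reference 0 partners were lower in 4D(-/-), and Elovl7 alone was higher, where 1.18% of all genes were past 1.5-fold. The brown fat elongase Elovl3 was under the floor on every array.

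Enzymes of lipid assembly were examined likewise. Of 13 over the floor, Agpat2, which makes phosphatidic acid and is prominent in fat, was 2.09-fold lower in 4D(-/-) than in 4D(+/+), and Chpt1, a cholinephosphotransferase, 1.76-fold. Only these 2 were past 1.5-fold, where 4.53% of all genes were lower by that much. Dgat1, the other enzyme that completes triglyceride, read 325 in 4B(-/-) and 336 in 4B(+/+), 236 in 4D(-/-) and 343 in 4D(+/+), and 245 in C57. It stood 1.45-fold lower in 4D(-/-), in the direction of Dgat2 and by less. In 4B(-/-) 0 of the 13 were past 1.5-fold, where 1.31% of all genes were. So were 0 in 4D(-/-) without 4D(+/+) in the reference, where 1.18% of all genes were.

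Among 16 regulators over the floor, Mlxipl, which encodes the carbohydrate-responsive factor ChREBP, was 2.40-fold lower in 4D(-/-) than in 4D(+/+). It read 71.4 in 4B(-/-) and 84.0 in 4B(+/+), 57.3 in 4D(-/-) and 138 in 4D(+/+), and 63.2 in C57, so that the low arrays were near or under the floor. No other regulator was past 1.5-fold in that comparison, where 5.63% of all genes were. Without 4D(+/+) in the reference, 0 regulators were past 1.5-fold in 4D(-/-), where 1.18% of all genes were. The coactivator Ppargc1b was 1.503-fold lower in 4B(-/-) than in 4B(+/+), at 91.3 and 137, in a comparison where 1.31% of all genes were past 1.5-fold. Insig1, which holds SREBP in the endoplasmic reticulum and is itself an SREBP target, read 509 in 4B(-/-) and 631 in 4B(+/+), 602 in 4D(-/-) and 682 in 4D(+/+), and was highest in C57, at 846.

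Cholesterol synthesis genes, the targets of SREBP-2, had smaller median differences than the members, at 0.08 for 4B(-/-) and -0.14 for 4D(-/-). In each knockout comparison 0 of 17 over the floor were past 1.5-fold. Of all genes 1.31% were so in 4B(-/-) and 5.63% in 4D(-/-), so these counts are near the share of all genes. Across the 5 arrays 13 of the 17 were highest in C57, where 26.0% of all genes were, and 11 were lowest in 4D(-/-), where 29.9% were. Of 14 genes of fatty acid oxidation and the fasting response, 3 were at least 1.5-fold lower in 4D(-/-) than in 4D(+/+), namely Acadvl (1.71-fold), Acadm (1.68-fold) and Hadhb (1.66-fold), and 0 in 4B(-/-) than in 4B(+/+). Of all genes 4.53% and 0.93% were lower by that much. These enzymes break fatty acids down in mitochondria. Without 4D(+/+) in the reference, 1 of the 14 was lower in 4D(-/-), where 1.18% of all genes were past 1.5-fold, and it was none of these 3.

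**Figure D4:**
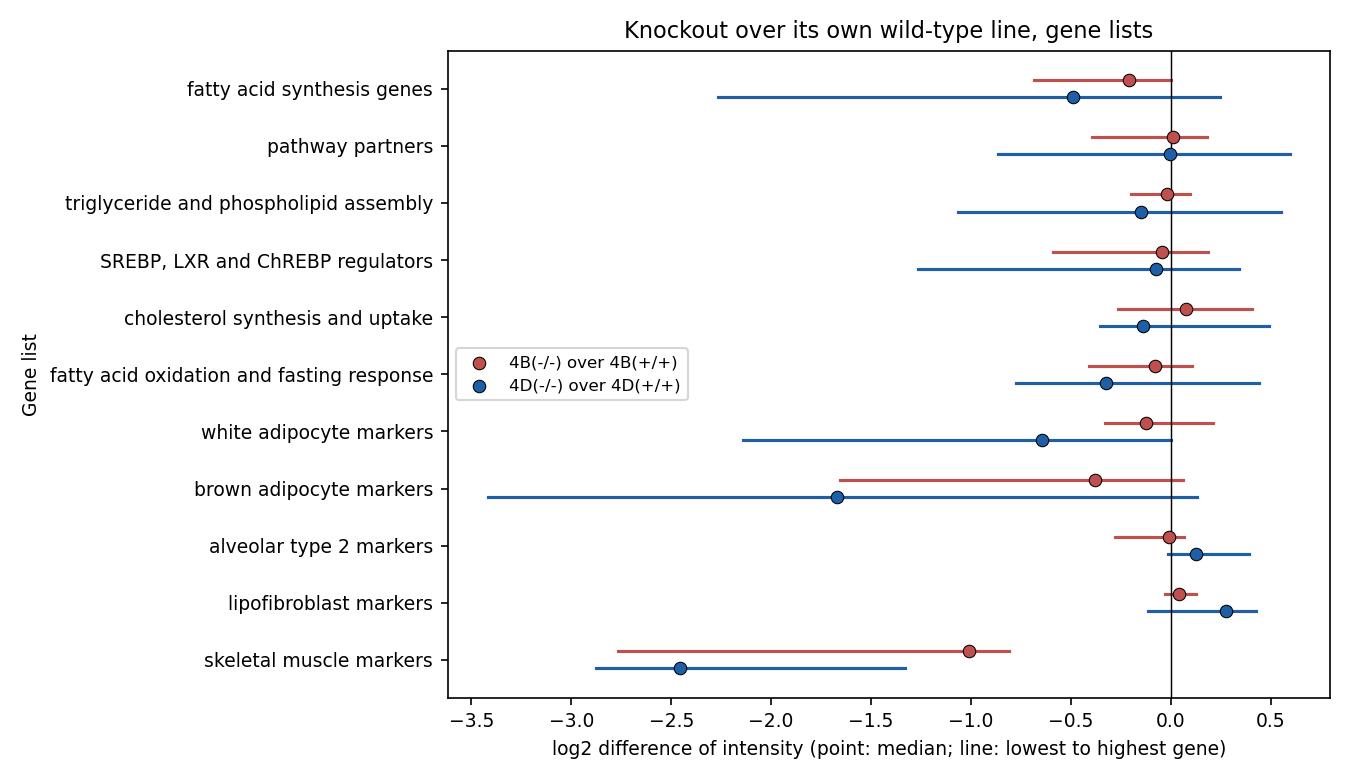
Log2 difference of each knockout from its own wild-type line for 11 gene lists, with points at the median and lines from the lowest to the highest gene over the floor. For 4D(-/-) over 4D(+/+) the median of fatty acid synthesis genes lies at -0.49 and those of pathway partners and cholesterol synthesis at 0.00 and -0.14.

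The genes with the most similar course over the 5 arrays were found by the distance between log2 values after each gene was centred on its own mean, for the 3 members with a span of at least 1 on the log2 scale. For Thrsp the nearest were Cox8b (distance 0.30), Orm1 (0.55), Ecrg4 (0.59), Cox7a1 (0.64) and Tmem45b (0.65), of which Cox8b and Cox7a1 stood in the brown adipocyte list. In 4B(-/-) over 4B(+/+), Cox8b and Cox7a1 differed by -0.11 and 0.06 on the log2 scale. Ucp1 and Cidea of the same list differed there by -1.66 and -1.11. Whether the values of Cox8b and Cox7a1 reflect fat or muscle was not tested. Dgat2 was nearest to Itln1 (0.25), Adtrp (0.31), the fat cell marker Fabp4 (0.39), Msln (0.40) and Slc27a2 (0.44). Elovl6 lay nearest to Agr2 (0.32), Krt15 (0.34), Coq8a (0.37), Pglyrp1 (0.40) and Gpd1 (0.43), none of which stood in a list. None of the 3 members was among the nearest 5 of another. The distance was not scaled, so it reflects the span of a gene as well as the order of its arrays. Thrsp and Elovl6 had the same order of arrays, with spans of 2.65 and 1.95 on the log2 scale. Of 11499 other genes, Elovl6 ranked 8th and Dgat2 29th from Thrsp, Thrsp 68th and Dgat2 83rd from Elovl6, and Elovl6 77th and Thrsp 1072nd from Dgat2. With 5 arrays such ranks are a description.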

How the data were processed

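The deposited values are linear intensities, 1 for each probe set on each array, and the submitters' processing notes name RMA, without version or settings. Labelling used 0.3 µg of total RNA and a 3' IVT protocol, per the labels. Intensities were turned to log2. Of 45101 probe sets 34958 carried 1 gene symbol in the platform annotation, 932 several and 9211 none, and only the first kind was used. Each gene was represented by its brightest probe set on average, counted if any array reached log2 6, and called at a 1.5-fold difference. The SD of log2 differences over all genes, 0.22 to 0.36 by comparison, served as the yardstick for single genes under the alternatives, and a change of 1.5 times as that for counts and medians. The number of arrays limits the precision. The members and lists were chosen with earlier results of these data known. Named genes were all members, up to 4 per list with the largest difference in a knockout comparison, the 5 nearest courses of each member spanning 1 log2 unit, and the defining markers Adipoq, Ucp1, Cidea, Plin1 and Sftpc. Elovl3, Lpl and Prdm16 were named in addition, after their values were seen. Alternatives were other thresholds, floors, references, probe set summaries and scalings (cyclic loess, limma 3.58.1). Counting was tested on simulated data. Tools were Python 3.11.15, pandas 2.3.3 and R 4.3.3.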

Additional observations from a re-analysis of the deposited data

Results flagged for a closer look

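Members whose knockout comparisons had opposite signs in the main setting were Scd2 and Srebf1. Scd2 differed by -0.15 on the log2 scale in 4B(-/-) over 4B(+/+) and by 0.25 in 4D(-/-) over 4D(+/+). Its probe sets disagreed in sign in the PDE4D comparison, both values lay within the SD of all genes, 0.22 and 0.33, and the difference between genotypes was not tested. Srebf1 differed by 0.00097 in 4B(-/-) over 4B(+/+) and by -0.19 in 4D(-/-) over 4D(+/+), both likewise within those SDs, and the difference was not tested. The 4B(-/-) value is practically no change and turned negative with centred arrays, at -0.014, and with cyclic loess, at -0.022.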

How the results depend on the processing

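No paired analysis was possible because each strain had 1 array and the labels give no replicate numbers. At a 1.3-fold threshold the members past it numbered 3 for 4B(-/-) over 4B(+/+), 7 for 4D(-/-) over 4D(+/+), 6 for 4B(-/-) over C57 and 4 for 4D(-/-) over C57, where 4.03%, 14.4%, 16.4% and 6.66% of all genes were, against 1, 4, 2 and 0 members at 1.5-fold. At 2-fold there were 0 for 4B(-/-) over 4B(+/+), 1 for 4B(-/-) over C57 and 3 for 4D(+/+) over C57, where 0.409%, 1.34% and 2.01% of genes were. Set against all 3 wild-type arrays averaged, 0 members were past 1.5-fold in 4B(-/-) and 3 in 4D(-/-), and the median in 4D(-/-) moved to -0.17. With the mean of C57 and the other wild-type line, added after seeing the data, 0 were so in 4B(-/-) and 1 in 4D(-/-), and the medians moved to -0.098 and -0.038. These alternatives dilute or leave out the own wild-type array by construction. With the median of probe sets the medians over C57 moved to 0.20 in 4B(-/-) and 0.17 in 4D(-/-). That summary also took in the 6 of 25 member probe sets that were under the floor, so it partly reflects values near background. The other 36 counts and 29 medians stayed within 1.5 times. Of 220 single differences 199 moved by less than the SD of all genes, and 0 called differences changed sign. The remaining single differences moved with another reference or, for Scd2, with the median of probe sets, which put 4B(+/+) at 0.24 over C57 where the brightest probe set had -0.34. The alternatives run also included those without a floor, with a floor at log2 7, with centred arrays and with cyclic loess. Folds against intensities near 64, as for Mlxipl, are poorly determined.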

Other observations

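Cholesterol synthesis and uptake genes were mostly lower than in C57 on the other 4 arrays. The medians of the 17 genes relative to C57 were -0.06 in 4B(-/-), -0.24 in 4B(+/+), -0.28 in 4D(-/-) and -0.16 in 4D(+/+). Idi1, an isomerase of the mevalonate pathway, read 1163 in 4B(-/-) and 987 in 4B(+/+), 958 in 4D(-/-) and 1120 in 4D(+/+), and 1347 in C57. Pmvk went the other way, the 1 gene of the list lowest in C57. It read 436 in 4B(-/-) and 329 in 4B(+/+), 454 in 4D(-/-) and 323 in 4D(+/+), and 278 in C57. Relative to C57 it was 1.57-fold higher in 4B(-/-) and 1.63-fold higher in 4D(-/-).

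Fatty acid oxidation and fasting genes, 14 in all, had medians relative to C57 of 0.30 in 4B(-/-), 0.50 in 4B(+/+), 0.04 in 4D(-/-) and 0.35 in 4D(+/+), and C57 and 4D(-/-) were each the lowest array for 6 of them. Pdk4, a kinase that restrains glucose oxidation in fasting, read 595 in 4B(-/-) and 789 in 4B(+/+), 688 in 4D(-/-) and 736 in 4D(+/+), and 387 in C57. The clock output gene Dbp read 146 in 4B(-/-) and 176 in 4B(+/+), 247 in 4D(-/-) and 233 in 4D(+/+), and 2475 in C57. All of these comparisons use the single C57 array.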
